A study of Sus scrofa domesticus with 4 samples.

Results

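The respiratory chain is a set of protein complexes in the inner mitochondrial membrane. Complex I takes electrons from NADH and complex II from succinate, complex III passes them to cytochrome c, and complex IV hands them to oxygen. Complexes I, III and IV pump protons, and complex V, the ATP synthase, uses the proton gradient to make ATP. Most subunits are encoded in the nucleus, and in uterine smooth muscle this ATP is one source of the energy for contraction.

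The nuclear genes of this chain were followed in slices of pig myometrium, the muscle layer of the uterus, cultured with or without orexin B, a neuropeptide made from the orexin precursor. The tissue came from 4 mature crossbred gilts (Large White x Polish Landrace, 7 to 8 months old) on days 15 to 16 of gestation. Treated slices received 10 nM orexin B for 24 h after a preincubation of 2 h, and control slices were cultured for the same time with nothing added, so both groups were cultured explants of pregnant animals. Each of 4 arrays carried treated and untreated RNA together in 2 colours, with orexin B RNA in Cy5 on arrays 1 and 3 and in Cy3 on arrays 2 and 4. Cultures were in duplicate, and the labels do not say how duplicates were combined.

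Members were the non-control probes whose accession is a RefSeq mRNA of a pig gene with a respiratory chain symbol. There were 98 such probes for 26 genes among 43603 probes on the array, and 6700 probes in all matched a RefSeq gene. The pig gene table holds 69 symbols of this kind, so the other subunits were not analysed here. Complex I had 6 genes with 21 probes, complex II 2 genes with 12, complex III 2 genes with 8, complex IV 8 genes with 24 and complex V 8 genes with 33. Testing required a signal well above background in 1 channel, treated or untreated, on each of the 4 arrays, which left 95 member probes for 25 genes among 19881 tested probes. COX8H, the heart and muscle form of subunit 8 of complex IV, had 2 probes, neither of them well above background on any array. One of the 2 probes of NDUFA4L2 was also not well above background on any array. Probes of the same gene share their target and are not replicates: ATP5A1 alone had 14 probes and ATP5O 10.

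Values are log2 ratios of orexin B over untreated. A gene with several tested probes has their mean on each array, and its error is the SD over 4 arrays. On arrays 1 to 4 the treated channel was well above background for 54.3%, 48.7%, 51.2% and 52.8% of probes and the untreated channel for 37.6%, 50.1%, 45.5% and 58.2%. Of the 95 tested member probes, 76 were among the 3977 brightest tested probes, those with a mean log2 intensity of 11.96 or more. All 9 smooth muscle markers on the array were measured, and CDH1, 1 of 3 epithelial markers, was not well above background.

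None of the 25 measured genes of the respiratory chain passed the test, and most of them lay close to 0. By limma's moderated test 0 of 95 member probes passed the threshold of 0.05 after adjustment, against 0% of all tested probes, and their adjusted p ran from 0.637 to 0.999. At an unadjusted p under 0.05 there were 0 higher member probes, against 4.31% of all tested probes, and 1 lower probe (1.05%), against 3.41%. In either direction 7.72% of all tested probes were under that threshold. The 95% interval of the log2 ratio lay within 1.5-fold in either direction for 88 member probes (92.6%), against 71.8% of all tested probes, and within 2-fold for all 95, against 95.1%. Over the 25 genes the median of the absolute mean was 0.059. The means ran from -0.28 for COX7C to 0.13 for NDUFC1, the extremes of a narrow range in which neighbouring genes did not differ beyond their SD over arrays.

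**Figure D1:**
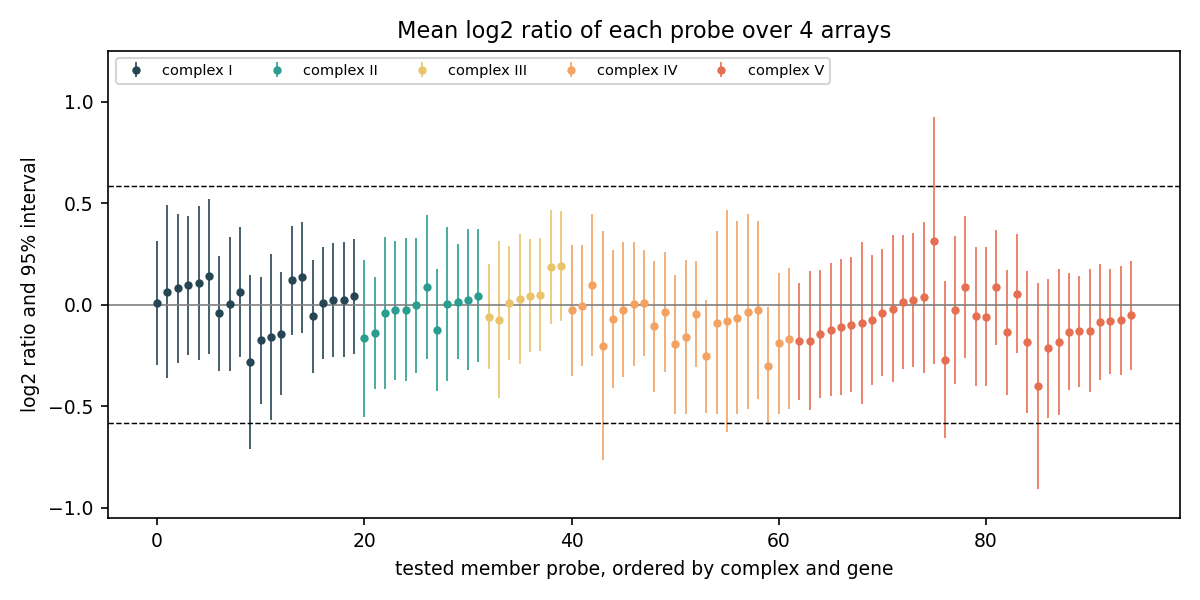
Mean log2 ratio of orexin B over untreated (vertical axis) for each of 95 tested member probes over 4 arrays, ordered by complex and gene along the horizontal axis, with the 95% interval of limma's moderated test as bars and dashed lines at 1.5-fold. The intervals of 88 probes stay between the dashed lines, and only 1 interval, that of a COX7C probe, lies wholly on one side of 0.

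More genes had a mean below 0 than above it, by small amounts. The mean was below 0 for 17 of 25 genes and for 60 of 95 probes (63.2%), against 45.9% of all tested probes. It was above 0 for the other 35 member probes, against 54.1%. The median over the 25 genes was -0.049, with array medians of -0.17, -0.15, -0.0039 and 0.11, so that the arrays lay on both sides of 0. The median of all tested probes was 0.018. Of 25 genes, 22 had arrays on both sides of 0, 2 lay below 0 on all 4 arrays and 1 lay above 0 on all 4. The count of genes below 0 was 23 with median centring of each array in place of loess, and 11 without replicate 2, where the median over genes was 0.017. Array 1 was alone on its slide, and on the slide of the other 3 arrays that median was -0.018.

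Complex I, the NADH dehydrogenase, had 6 measured genes by symbol, of which 4 had a mean above 0 and 2 below. Without NDUFA4 and NDUFA4L2, described below, 3 genes had a mean above 0 and 1 below. The median of the 6 genes was 0.021 and turned below 0 with median centring, as Cy5 over Cy3 without turning, and without replicate 3 or 4. NDUFC1, an accessory subunit of the membrane arm, had log2 ratios of 0.053, 0.075, 0.30 and 0.074 on arrays 1 to 4. Array 3 stood above the others, and all 4 arrays lay above 0. Its mean was 0.13 ± 0.12 (SD, n = 4), a 1.09-fold ratio, and the smallest adjusted p of its 2 probes was 0.804 in limma's test.

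NDUFB8, another accessory subunit of the membrane arm, was at the other end of complex I. Its 4 probes averaged -0.53, -0.34, -0.0039 and 0.11 on arrays 1 to 4. Arrays 1 and 2 were low and arrays 3 and 4 were near or above 0. The mean was -0.19 ± 0.30 (SD, n = 4), with a smallest adjusted p of 0.750 among its probes in limma's test. NDUFB6, also of the membrane arm, had -0.23, -0.15, 0.22 and 0.29, and NDUFV2, an iron-sulfur subunit of the part that oxidises NADH, had -0.089, -0.13, 0.051 and 0.20. Both had arrays 1 and 2 below 0 and arrays 3 and 4 above it, with means of 0.033 ± 0.26 and 0.0082 ± 0.15 (SD, n = 4).

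NDUFA4 was first assigned to complex I and is now counted as a subunit of complex IV. It had log2 ratios of -0.35, 0.21, 0.039 and 0.43 on arrays 1 to 4, with a mean of 0.082 ± 0.33 (SD, n = 4). All 6 of its probes had a mean above 0. The gene's mean was -0.026 with median centring, -0.033 without replicate 4 and -0.24 as Cy5 over Cy3 without turning. Its paralog NDUFA4L2, known as a hypoxia-induced gene, was dim, with treated levels of 8.27, 8.10, 8.85 and 8.04 and untreated levels of 8.27, 8.15, 8.72 and 8.30 (normalized log2 intensity). Its ratios were 0.0023, -0.043, 0.13 and -0.26, with a mean of -0.044 ± 0.16 (SD, n = 4), and its probe was well above background on 3 of 4 arrays in the untreated channel. With Agilent's processed ratio the mean of NDUFA4L2 was -0.21.

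Complex II, succinate dehydrogenase, also belongs to the tricarboxylic acid cycle. SDHB, its iron-sulfur subunit, had -0.17, -0.32, 0.26 and 0.059 on arrays 1 to 4 over 7 probes. SDHD, a membrane anchor that helps hold the haem, had 0.037, -0.37, 0.18 and 0.12 over 5 probes. In both genes array 2 was the lowest and array 3 the highest, and the arrays spanned 0. Their means were -0.046 ± 0.25 and -0.0087 ± 0.25 (SD, n = 4), and the complex had a median of -0.027. Without replicate 2 the median was 0.079.

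Complex III, which passes electrons from ubiquinol to cytochrome c, had the narrowest spread over arrays. UQCRB, a small subunit near the ubiquinone site, had -0.064, 0.13, 0.022 and 0.15 on arrays 1 to 4 over 7 probes, and UQCR10, another small subunit, had -0.083, -0.018, -0.15 and 0.014. Their means were 0.061 ± 0.10 and -0.059 ± 0.072 (SD, n = 4). The 95% interval of UQCR10 ran from -0.32 to 0.20 on its single probe. The median of the pair was 0.0011 and turned below 0 with median centring (-0.095) and without replicate 2 (-0.018) or 4 (-0.026). It was also below 0 as Cy5 over Cy3 without turning (-0.070), without background correction (-0.0047) and with the median over probes (-0.0026).

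Complex IV, cytochrome c oxidase, had 7 measured genes, of which 6 had a mean below 0, and a median of -0.071. The median was -0.019 without replicate 1, where COX6A1 (0.055) and COX7A2 (0.15) turned above 0, and -0.21 without replicate 4. COX7C, a small membrane subunit, was the lowest member. Its log2 ratios were -0.55, -0.27, -0.27 and -0.035 on arrays 1 to 4, all below 0, and on array 1 they rest on 1 of its 3 probes because the spots of its other probes were marked as outliers. That probe had treated levels of 14.2, 13.9, 14.1 and 14.7 and untreated levels of 14.8, 14.2, 14.3 and 14.8 (normalized log2 intensity). Treated was lower than untreated on each array, by an amount that differed between arrays. The gene's mean was -0.28 ± 0.21 (SD, n = 4), a ratio of 0.823.

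The probe of COX7C measured on all 4 arrays had a mean of -0.30 ± 0.12 (moderated SE) and an adjusted p of 0.637 in limma's test, so it did not pass. Its interval ran from -0.59 to -0.010. The 2 other probes had means of -0.19 and -0.17 over 3 arrays. It was the sole member probe with an unadjusted p under 0.05. Without replicate 1 the gene's mean was -0.19, and without replicate 4 it was -0.36. It stayed below 0 under each of 16 other settings, from -0.38 to -0.13. Several of these could not turn its sign. The gene lay below 0 on every array, so leaving out 1 replicate kept the sign, and changed filters or a dye term left its mean unchanged.

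COX7A1, the heart and muscle form of subunit 7A, was the other gene below 0 on all 4 arrays. Its single probe had treated levels of 12.03, 12.47, 12.85 and 12.95 and untreated levels of 12.06, 12.86, 13.18 and 13.23 on arrays 1 to 4 (normalized log2 intensity). The ratios were -0.037, -0.39, -0.32 and -0.28. Arrays 2, 3 and 4 lay close together and array 1 lay near 0. The mean was -0.26 ± 0.12 (moderated SE), with an adjusted p of 0.658 in limma's test and an interval from -0.53 to 0.023. Read as Cy5 over Cy3 on every array, without turning the arrays of swapped dye, its mean was 0.076. By the dye fields, that reading sets the dyes against each other, not the treatments. Over all measured members 4 probes (4.21%), of COX7A1, COX7C and ATP5O, lay below 0 on all 4 arrays, against 7.08% of all tested probes. Another 3 member probes (3.16%), of NDUFC1 and UQCRB, lay above 0 on all 4, against 8.92%.

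COX7A2, the form of subunit 7A found in most tissues, spread furthest between arrays. Its ratios were -0.68, 0.019, -0.18 and 0.60 on arrays 1 to 4. Array 1 was low and array 4 high, and the 5 probes followed each other: they ran from -0.87 to -0.55 on array 1 and from 0.51 to 0.68 on array 4. The mean of these opposite values was -0.059 ± 0.53 (SD, n = 4). COX6A1, the form of subunit 6A found in most tissues, had -0.40, 0.047, -0.18 and 0.29, with the same arrays at its ends and a mean of -0.058 ± 0.30 (SD, n = 4). The difference between COX7A1 and COX7A2, the 2 forms of subunit 7A, was not tested.

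Among the other genes of complex IV, COX6C, a small subunit, had a mean of -0.13 ± 0.24 (SD, n = 4), with -0.48 on array 1 and -0.053, -0.087 and 0.083 on the others. COX6B, which faces the intermembrane space, had -0.054, -0.29, -0.013 and 0.074 and a mean of -0.071 ± 0.16 (SD, n = 4). COX5B, a subunit on the matrix side, had -0.32, -0.015, 0.22 and 0.20. Its mean was 0.021 ± 0.25 (SD, n = 4), the only mean above 0 among the measured COX genes. That sign turned in 6 of 16 other settings, where the lowest value was -0.098.

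**Figure D2:**
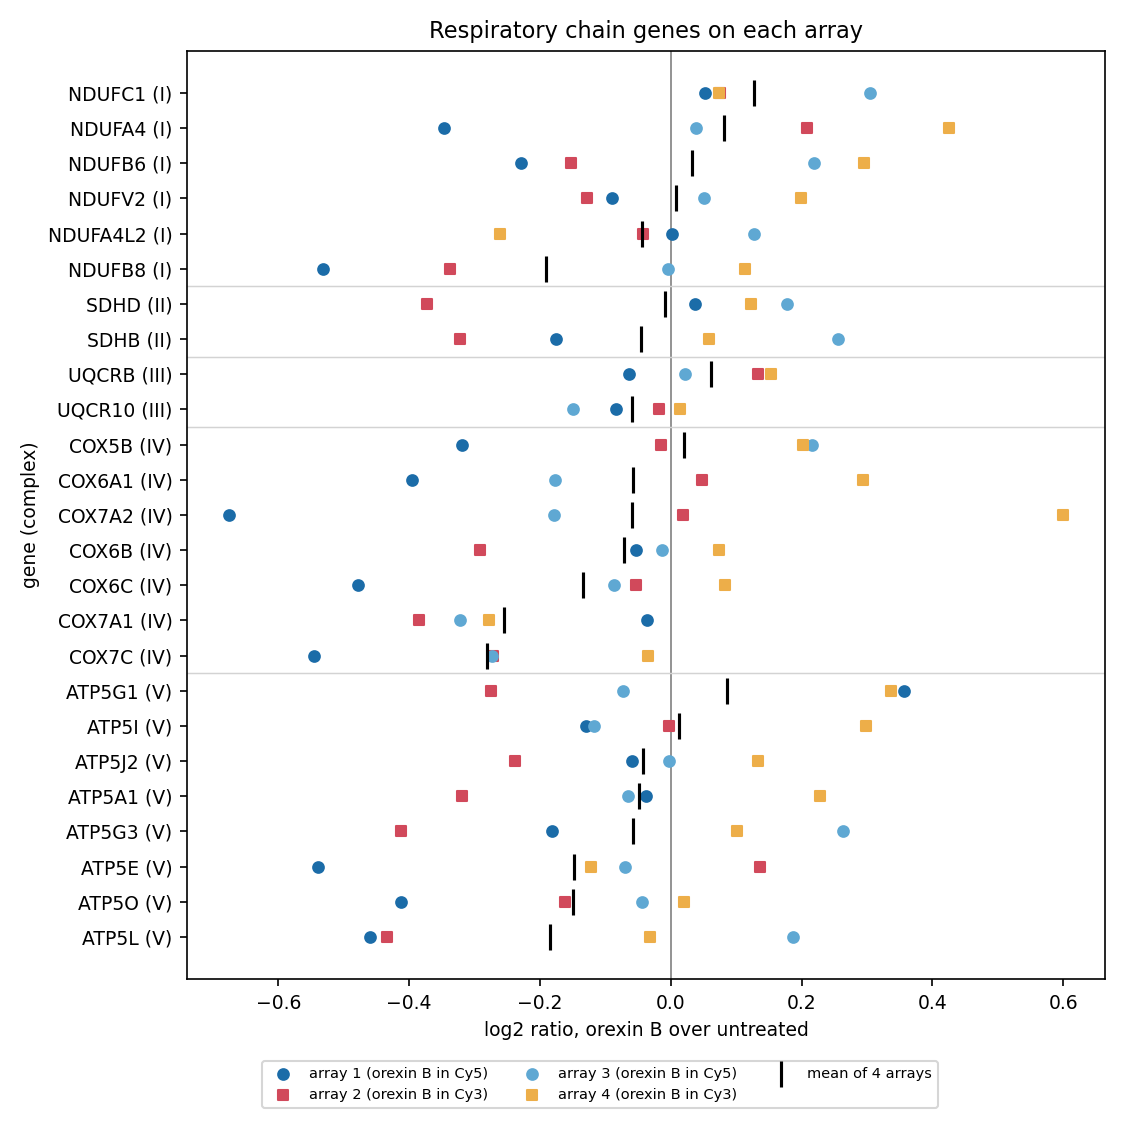
Log2 ratio of orexin B over untreated (horizontal axis) for the 25 tested genes, grouped by complex along the vertical axis, with 1 point per array and a black bar at the mean of 4 arrays. Circles have orexin B RNA in Cy5 and squares in Cy3. COX7C and COX7A1 are the genes with all points below 0, NDUFC1 is the gene with all points above it, and COX7A2 runs from -0.68 to 0.60.

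Complex V, the ATP synthase, had 8 genes with 33 probes. Of these, 6 genes had a mean below 0, and the median was -0.053. It turned to 0.020 without replicate 2 and to 0.0038 as Cy5 over Cy3 without turning. In the catalytic head, ATP5A1, the alpha subunit (also named ATP5F1A), had -0.038, -0.32, -0.066 and 0.23 on arrays 1 to 4 over 14 probes, with a mean of -0.049 ± 0.22 (SD, n = 4). ATP5E, the epsilon subunit of the central stalk, had -0.54, 0.14, -0.069 and -0.12 and a mean of -0.15 ± 0.28 (SD, n = 4). Array 1 was the low value of ATP5E, and its 2 probes differed in brightness and in ratio, with means of -0.026 and -0.27.

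ATP5O, the stalk protein that joins the head to the membrane part, had -0.41, -0.16, -0.044 and 0.021 over 10 probes. Its mean was -0.15 ± 0.19 (SD, n = 4), all 10 probes had a mean below 0, and the smallest adjusted p among them was 0.706 in limma's test. Of the genes for the c subunit of the proton-carrying ring, ATP5G1 had 0.36, -0.27, -0.073 and 0.34, and ATP5G3 had -0.18, -0.41, 0.26 and 0.10. These genes encode the same mature protein, and their values differed in order over the arrays. The means were 0.087 ± 0.31 and -0.057 ± 0.30 (SD, n = 4), each from 1 probe.

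The small membrane subunits of the ATP synthase near its dimer interface gave no common direction. ATP5L (subunit g) had -0.46, -0.43, 0.19 and -0.031 from a dim probe, with a mean of -0.18 ± 0.32 (SD, n = 4), the lowest of the complex. ATP5J2 (subunit f) had -0.059, -0.24, -0.0030 and 0.13, and ATP5I (subunit e) had -0.13, -0.0026, -0.12 and 0.30. Their means were -0.042 ± 0.15 and 0.012 ± 0.20 (SD, n = 4). In each of these 3 genes arrays lay on both sides of 0.

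The arrays differed from each other more than the mean over arrays differed from 0. On array 1, 70 of 93 member probes (75.3%) lay below 0, against 46.2% of all tested probes, and 23 above, against 53.8%. On array 2 there were 71 of 95 (74.7%) below 0, against 48.0%, and 24 above, against 52.0%. On array 3 there were 50 of 95 (52.6%) below 0, against 49.4%, and 45 above, against 50.6%. Array 4 was the other way round, with 13 of 95 (13.7%) below 0, against 49.5%, and 82 above, against 50.5%, and 20 of 25 genes lay above 0 there. The medians of all tested probes on the 4 arrays were 0.024, 0.021, 0.0042 and 0.0036. In the 3977 brightest tested probes they were -0.0063, 0.014, -0.015 and 0.040.

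These array values depend on the loess step, which levels the ratio against brightness. With median centring in its place the member medians were 0.81, -1.41, 0.62 and -0.55 on arrays 1 to 4, so the sign turned on arrays 1, 3 and 4. All tested probes had 0.52, -0.52, 0.34 and -0.29 under that setting. Both sets of medians lay above 0 on arrays 1 and 3, where orexin B RNA was in Cy5. They lay below 0 on arrays 2 and 4, where that RNA was in Cy3. With Agilent's processed ratio they were -0.15, -0.23, 0.054 and 0.064. The mean over arrays moved less, with a median over genes of -0.15 under median centring and -0.044 under Agilent's ratio.

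**Figure D3:**
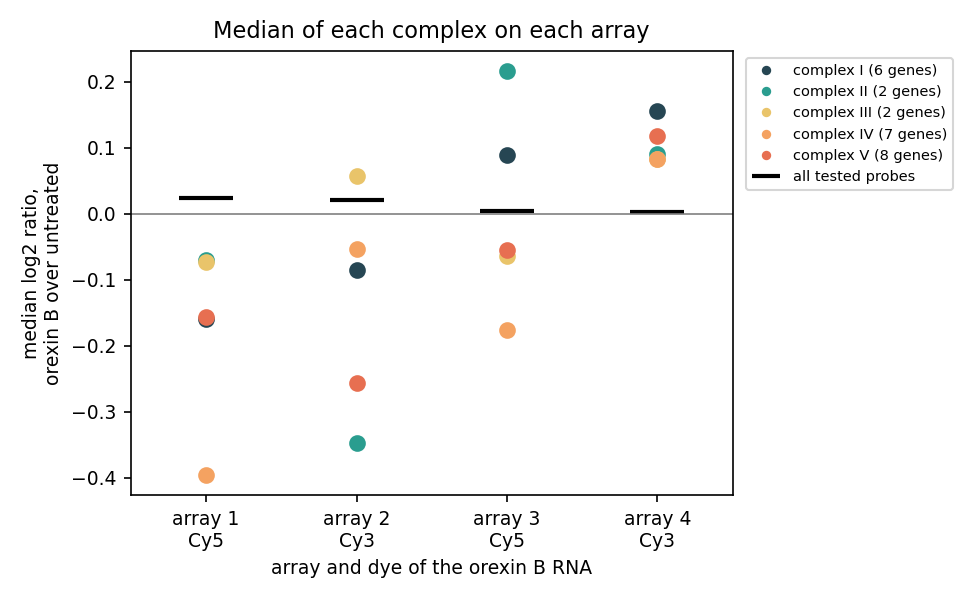
Median log2 ratio of orexin B over untreated (vertical axis) of the tested genes of each complex on each of the 4 arrays (horizontal axis, with the dye of the orexin B RNA); black bars are the median of all tested probes. After loess every complex lies below 0 on array 1 and above 0 on array 4. With median centring the median over all member genes is 0.81 on array 1 and -0.55 on array 4. That setting gives medians above 0 where orexin B RNA is in Cy5 and below 0 where it is in Cy3.

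Dye orientation moved with the values of some genes. COX7A2 had a mean of -0.43 where orexin B RNA was in Cy5 and of 0.31 where it was in Cy3, the widest difference among members. NDUFA4 had -0.15 and 0.32, and COX6A1 had -0.29 and 0.17. SDHD had the widest difference in the other direction, with 0.11 and -0.12. The median absolute difference between orientations was 0.16 over the 25 genes and 0.26 over all tested probes. The first is over genes, many of them means of several probes, and the second over single probes. Averaging can narrow a difference, so these values are not directly comparable. Each orientation holds 2 arrays, so dye and the tissue of those arrays cannot be told apart. As each orientation counts equally, the mean over 4 arrays holds both, and a fit with dye as a further term gave 1 member probe at an unadjusted p under 0.05, as did the fit without it.

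Probes of the same gene showed how far single probes differed within an array, which is not the precision of the mean over arrays. In 12 member genes with at least 3 usable probes on each array, the median SD between probes of a gene was 0.24 on array 1, 0.087 on array 2, 0.089 on array 3 and 0.068 on array 4. In 480 other named genes, not matched to the members for brightness, these values were 0.20, 0.17, 0.15 and 0.12. Array 1 held the widest spread in 9 of the 12 genes (75.0%), against 44.8% of the other genes. On array 1 the 5 probes of COX6A1 ran from -1.11 to -0.029, the 10 probes of ATP5O from -1.26 to -0.064 and the 7 probes of UQCRB from -0.63 to 0.35.

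Single probes made some of these ranges. In ATP5A1 one probe had 1.31 on array 3 while the gene's lowest probe there had -0.46, and that probe's interval, -0.29 to 0.92, was the only one to pass 1.5-fold upwards. The interval of an ATP5O probe, from -0.91 to 0.10, reached furthest down. Of 19 genes with several tested probes, 9 had probe means of both signs: NDUFV2, SDHB, SDHD, UQCRB, COX5B, COX6A1, ATP5A1, ATP5I and ATP5J2. With the median over probes in place of the mean, the median over the 25 genes was -0.049.

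**Figure D4:**
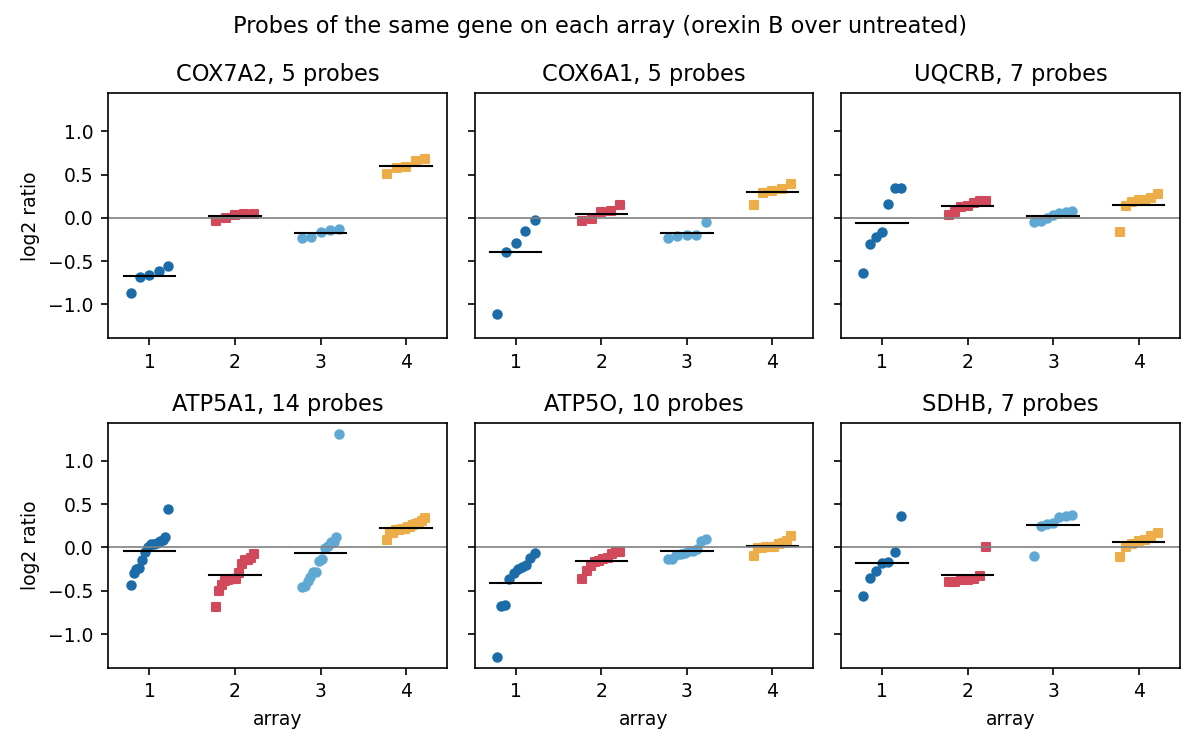
Log2 ratio of orexin B over untreated (vertical axis) of each tested probe of 6 genes on arrays 1 to 4 (horizontal axis), 1 point per probe in order of value, with a black line at the mean. The 5 probes of COX7A2 stay together on each array, from -0.87 to -0.55 on array 1, whereas those of COX6A1, UQCRB and ATP5O spread on array 1 and a single ATP5A1 probe stands at 1.31 on array 3.

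Other mitochondrial genes, from lists around the chain, also had no probe past an adjusted p of 0.05 in limma's test. In the tricarboxylic acid cycle 11 genes were measured, 4 above and 7 below 0, with a median of -0.015. Of their 33 tested probes 2 were higher at an unadjusted p under 0.05, both of CS, against 4.31% of all tested probes. Its highest gene was CS, citrate synthase, with 0.39, 0.073, 0.51 and 0.21 on arrays 1 to 4 (mean 0.30 ± 0.19, SD, n = 4). All 4 arrays of CS lay above 0, and complex II, part of the same cycle, lay near 0. Among 6 genes for the exchange of nucleotides and phosphate across the membranes, 1 was above 0, the median was -0.044 and 1 of 27 tested probes was higher at an unadjusted p under 0.05. VDAC1, an outer membrane channel, was highest with 0.20 ± 0.13 (SD, n = 4) and held that probe, and SLC25A6, an ADP/ATP carrier, was lowest with -0.19 ± 0.27.

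Protein import and folding had 4 measured genes with a median of 0.033. Of their 18 tested probes 4 were higher at an unadjusted p under 0.05, all of HSPD1, against 4.31% of all tested probes. The chaperonin HSPD1 was highest at 0.36 ± 0.35 (SD, n = 4), with 0.15, 0.73, -0.0091 and 0.56 on arrays 1 to 4. Its higher values were on arrays 2 and 4, those with orexin B RNA in Cy3. TOMM7, a small part of the outer membrane import pore, was lowest at -0.15 ± 0.14. Of the mobile carriers and feeders 3 were measured, from ETFB, an electron transfer flavoprotein, at -0.16 ± 0.17 to CYCS, cytochrome c, at 0.11 ± 0.22. Of the assembly factors 3 were measured, from NDUFAF3 at -0.11 ± 0.11 to PET100 at 0.052 ± 0.12. Mitochondrial ribosomal proteins (6 measured, 3 above 0) had a median of 0.0041, between MRPL24 at -0.18 ± 0.22 and MRPL52 at 0.14 ± 0.26. Of the regulators of mitochondrial DNA expression 2 were measured. TFAM, which packages that DNA and is a factor for its transcription, had -0.21, 0.64, 0.45 and 0.60 (mean 0.37 ± 0.40, SD, n = 4). TFB1M had -0.20 ± 0.28.

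Markers of smooth muscle, macrophages and fibroblasts had array medians over a wider range than the members. Those of blood endothelium ran from -0.021 to 0.25. The range was widest for epithelium and neutrophils, each with 2 measured markers. Epithelial medians were 0.280, -0.478, -1.997 and 0.817 on arrays 1 to 4, and neutrophil medians were 0.036, 1.502, -1.057 and 0.781. In tissue RNA, fewer cells of a type and less RNA per cell cannot be told apart. All 9 smooth muscle markers had a mean below 0, with medians of 0.12, -1.09, 0.23 and -1.03 on arrays 1 to 4 and mean levels from 12.9 to 13.9 treated and from 13.4 to 14.0 untreated (normalized log2 intensity). All 8 macrophage markers had a mean above 0, with medians of 0.58, 0.075, 0.93 and 0.77 and mean levels from 9.44 to 10.66 treated and from 8.82 to 9.98 untreated. All 4 fibroblast markers had a mean below 0, with medians of 0.025, -0.64, 0.045 and -0.66. The smooth muscle and fibroblast medians were below 0 only on arrays 2 and 4, where orexin B RNA was in Cy3. On arrays 1 and 3, where that RNA was in Cy5, they were above 0. Dye and the tissue of those arrays cannot be told apart here either. The members had array medians of -0.17, -0.15, -0.0039 and 0.11. They were below 0 on arrays 1 and 2, where smooth muscle was at 0.12 and -1.09. On array 3 the members were near 0 and smooth muscle was at 0.23. On array 4 the members were above 0 and smooth muscle was at -1.03. The part of these cell types in the members' values was not tested.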

How the data were processed

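Per the file headers, the deposited scanner files give each spot's intensity and the log10 ratio, red to green, from Agilent Feature Extraction 10.7.3.1. The deposited series table holds log2 ratios of the same arrays, orexin B over untreated. Ratios were turned by each sample's dye fields, although the labels' labelling protocol describes just 1 orientation. The series table has the same turning: against the scanner ratios its sign is reversed on arrays 2 and 4 and kept on arrays 1 and 3. Median signals were background-corrected (normexp, offset 50) and loess-normalized, giving control spots no weight, in limma 3.58.1 (R 4.3.3). Spots marked as outliers (31 to 138 per array) were left out, and probes needed a usable spot on at least 3 arrays. An intercept was fitted with eBayes (two-sided, Benjamini-Hochberg over 19881 probes), and the fit was tested on simulated data. Its p-values reflect only how these arrays vary. Symbols came from the Sscrofa11.1 RefSeq table by accession. Named were fixed key subunits, the 2 highest and 2 lowest genes of each complex, members at an unadjusted p under 0.05, genes whose probes differed in sign and the ends of each other list (1 of these is not reported here); the remaining members are given too. Members and lists were chosen with earlier results of these data known. Alternatives varied background, normalization, source table, filter, dye, direction, slide, probe summary and the arrays included. Figures used matplotlib 3.10.9.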

Additional observations from a re-analysis of the deposited data

Results flagged for a closer look

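NDUFC1, an accessory subunit of complex I, stood out on array 3, at 0.30 against 0.053 to 0.075 elsewhere (log2 ratio). It was 1 of 30 sets of 4 values checked for a distant highest or lowest array, and chance alone gives about 1.5 such sets.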

How the results depend on the processing

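By limma's test 0 member probes and 0 of all tested probes had an adjusted p under 0.05 in each setting that was fitted. The 1 lower member probe at an unadjusted p under 0.05 became 0 without background correction, with median centring, with Agilent's ratio, with the series table and with the strict filter, 2 with no filter and with slide as a random block, and 7 as Cy5 over Cy3 without turning; it ran from 0 to 1 without 1 replicate. Over all tested probes the unadjusted count of 1534 was 177 with median centring, 2302 with no filter, 2382 with dye as a further term and 4280 with slide as a random block (correlation -0.26), and ran from 727 to 1922 without 1 replicate. The median of complex III was -0.095 with median centring. The count of genes below 0 ran from 11 to 21 without 1 replicate. The causes were not tested. Of 399 gene values under other settings, 393 stayed within 1 SD over arrays of the reported value, and 7 of 25 genes kept their sign in every setting. Many of the 399 could not leave that range, as dropping 1 replicate moves a mean by less than 1 SD. The strict filter, the dye term and the regrouping of NDUFA4 left gene values as they were. The count is therefore no measure of stability. COX7A1 and ATP5L changed sign only as Cy5 over Cy3 without turning, a reading that by the dye fields compares dyes and not treatments. Mean spot signals were not run, as the files hold medians. Each ratio already pairs treated with untreated tissue on its array. The 2 settings on probes' median and on NDUFA4 were chosen after seeing the data. The number of arrays limits the precision.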
